A study of Mus musculus with 4 samples.

Results

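The genes described here are 10 cytochrome P450 genes of mouse liver, chosen by name because they mark the zones of the liver lobule or oxidize drugs, toxins, and bile acids. They are Cyp2e1, Cyp1a2, Cyp2a5, Cyp2c29, Cyp2f2, Cyp3a11, Cyp3a13, Cyp2b10, Cyp2c70, and Cyp2d9, which is 10 of the 81 protein-coding genes of P450 families 1 to 4 and 10 of 21910 protein-coding genes in the annotation (GENCODE vM21, on mm10, the build of all gene positions below). The rule goes by name, with no threshold on a measured value. Single-cell ATAC-Seq (scATAC-Seq) was used, in which a transposase cuts open DNA in nuclei and a barcode assigns each cut to its nucleus. Hepatocytes were isolated by collagenase perfusion from mice aged 10 to 12 weeks per the labels and kept on a normal diet, and the study's methods give the animals as male C57BL/6J and slightly younger at surgery. There was 1 library from undamaged liver (PHx 0 h) and 1 each from liver regrowing 48, 72, and 96 h after surgery that removed part of it (partial hepatectomy, PHx). The 0 and 48 h nuclei came from 1 hepatocyte preparation each, of 1 mouse per the study's text, and the sources used here do not say how many animals stand behind the 72 and 96 h libraries. With 1 library per time point there was no replicate spread, so no test was possible, and time, animal, and library cannot be told apart. All intervals are exact 95% intervals that cover counting error only.

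P450 enzymes sit in the endoplasmic reticulum and insert oxygen into fatty acids, steroids, drugs, and toxins. Many of them are zonated: hepatocytes around the central vein carry most drug oxidation, under Wnt/beta-catenin signaling, and hepatocytes around the portal vein carry other functions. Nuclear receptors that sense foreign compounds and bile acids, the constitutive androstane receptor (CAR, gene Nr1i3) and the pregnane X receptor (PXR, gene Nr1i2), switch on genes of the Cyp2b, Cyp2c, and Cyp3a subfamilies together with their partner RXR, and the aryl hydrocarbon receptor (AHR) switches on Cyp1a genes.

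The later the time point, the shallower was its library. Nuclei, meaning barcodes that held 1000 or more counts, numbered 3977, 3892, 4256, and 3224 at 0, 48, 72, and 96 h, with medians of 26005, 11629, 4841, and 3682 counts. Every hepatocyte marker (10 of 10) had counts in each library, and the list summed to 4026, 4634, 3079, and 4397 CPM (counts scaled to a library total of 1e6), lowest at 72 h. Summed endothelial markers were between 214 and 327 CPM, and summed Kupffer and other myeloid markers between 497 and 595 CPM, although Cd5l and Vsig4, which are particular to Kupffer cells, had no peak in any library. Summed stellate markers were 86.6, 130, 185, and 150 CPM, biliary markers 46.6, 47.5, 70.1, and 68.3 CPM, and lymphocyte markers 0.029, 45.9, 1.86, and 0 CPM. Clusters low in hepatocyte markers held 214, 218, 338, and 0 nuclei. Libraries also shared barcode sequences: 1166 of 17623 distinct barcodes occurred in more than 1 library and 638 in all 4. Most of these were deep at 0 h (median 65184 counts) and shallow at 48, 72, and 96 h (medians of 491, 494, and 435 counts). Among nuclei, 877, 237, 125, and 123 carried a barcode found in another library. The counts of called P450 genes below are also given without these nuclei. For the median protein-coding gene, log2 ratios of CPM to 0 h were -0.07, -0.05, and 0.07 at 48, 72, and 96 h.

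The start of each gene was examined first, since it is the place where transcription factors and the polymerase assemble. The 250 bases upstream of the start are given for 6 genes, chosen to contrast genes that lost counts after PHx (Cyp2e1, Cyp1a2, Cyp2a5, and Cyp2f2) with genes that gained them (Cyp2c70 and Cyp3a11). They read 5′ to 3′ on the gene's own strand, from RefSeq (build GRCm38.p6). Capitals mark matches, on either strand, to any of 6 short motifs: the TATA box TATAAA, the HNF4A core AAAGTCC, the single nuclear receptor site AGGTCA, the C/EBP core TTGCNNAA, the AHR core GCGTG, and the CCAAT box CCAAT.
Cyp2e1: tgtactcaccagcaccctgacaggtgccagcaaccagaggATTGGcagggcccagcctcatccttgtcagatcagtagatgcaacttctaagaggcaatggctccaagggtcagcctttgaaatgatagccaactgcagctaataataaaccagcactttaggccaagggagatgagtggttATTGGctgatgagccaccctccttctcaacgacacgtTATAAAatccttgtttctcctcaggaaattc
Cyp1a2: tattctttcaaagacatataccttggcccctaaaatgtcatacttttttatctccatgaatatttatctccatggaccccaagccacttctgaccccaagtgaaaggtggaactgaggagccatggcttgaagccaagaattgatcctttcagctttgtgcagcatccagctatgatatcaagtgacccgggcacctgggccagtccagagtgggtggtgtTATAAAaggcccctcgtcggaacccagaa
Cyp2a5: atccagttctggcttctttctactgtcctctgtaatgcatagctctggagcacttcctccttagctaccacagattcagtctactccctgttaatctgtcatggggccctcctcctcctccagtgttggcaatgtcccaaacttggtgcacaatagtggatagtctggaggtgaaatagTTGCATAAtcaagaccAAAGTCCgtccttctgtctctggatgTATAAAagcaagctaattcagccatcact
Cyp2f2: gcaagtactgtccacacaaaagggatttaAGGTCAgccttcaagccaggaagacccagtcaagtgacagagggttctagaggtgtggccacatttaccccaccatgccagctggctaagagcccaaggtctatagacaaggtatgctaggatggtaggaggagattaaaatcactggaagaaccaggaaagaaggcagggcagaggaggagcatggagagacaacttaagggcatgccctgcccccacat
Cyp2c70: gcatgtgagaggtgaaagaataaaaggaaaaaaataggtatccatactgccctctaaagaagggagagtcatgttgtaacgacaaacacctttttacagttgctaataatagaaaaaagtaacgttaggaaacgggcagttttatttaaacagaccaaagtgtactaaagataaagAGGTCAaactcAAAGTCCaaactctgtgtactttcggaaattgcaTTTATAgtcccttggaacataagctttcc
Cyp3a11: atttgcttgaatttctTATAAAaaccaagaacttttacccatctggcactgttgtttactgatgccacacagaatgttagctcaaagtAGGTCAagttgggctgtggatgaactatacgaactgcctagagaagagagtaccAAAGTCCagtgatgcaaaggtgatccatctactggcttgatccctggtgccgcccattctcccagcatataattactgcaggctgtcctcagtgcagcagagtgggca
The Cyp2e1 sequence is the + strand of chr7:140763569-140763818, that of Cyp2a5 the + strand of chr7:26835089-26835338, and that of Cyp2f2 the + strand of chr7:27119705-27119954. The Cyp1a2 sequence is the - strand of chr9:57683656-57683905, that of Cyp2c70 the - strand of chr19:40187287-40187536, and that of Cyp3a11 the - strand of chr5:145879855-145880104.

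TATAAA was found in 7 of the 10 promoters, against 12.4% of 32851 RefSeq promoter sequences of the same length. In Cyp2e1 it spanned positions -31 to -26 from the start, and in Cyp1a2 and Cyp2a5 positions -29 to -24. In Cyp2c29 it lay at -19 to -14, in Cyp2c70 and Cyp2d9 on the opposite strand at -29 to -24 and -28 to -23, and in Cyp3a11 at -234 to -229, far from where a TATA box works. AAAGTCC, the core of the sequence bound by the hepatocyte factor HNF4A, was present in Cyp2a5, Cyp2c70, and Cyp3a11, and in 3.58% of all promoters. AGGTCA, a building block of nuclear receptor sites, was present in Cyp2f2, Cyp2c29, Cyp2c70, and Cyp3a11, and in 14.0% of all promoters. Cyp2c70 and Cyp3a11 thus held both AGGTCA and AAAGTCC within 250 bases. TTGCNNAA was present in Cyp2a5 and Cyp2b10 (9.56% of all promoters), GCGTG in Cyp2b10 (28.2%), and CCAAT in Cyp2e1 and Cyp3a13 (33.8%). GCGTG was not among the letters of the Cyp1a2 window, and AGGTCA not among those of the Cyp2b10 window. The whole 250 bases lay inside a called peak in all 4 libraries for each of these genes except Cyp2a5 and Cyp2c29. Of the Cyp2a5 window, 250 and 176 bases lay in a peak at 0 and 48 h and none later, and of the Cyp2c29 window 215 and 114 bases at 72 and 96 h. The motifs were chosen with these data known, a match is a description of letters only, and the absence of a match says only that the letters are not in the window.

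Chromatin over the 10 genes split into opposite directions after PHx. Counts were summed in all peaks that touch the gene body or the 2 kb upstream of it, and a gene was called when its CPM differed by at least 1.5-fold from 0 h. Such a sum cannot tell fewer open nuclei from fewer cuts per nucleus. At 48 h, 4 of the 10 genes were higher (Cyp2c29, Cyp2c70, Cyp3a11, and Cyp3a13), against 10.9% of 14018 protein-coding genes with a mean of at least 10 CPM. Another 3 were lower (Cyp1a2, Cyp2f2, and Cyp2d9), against 7.94%. At 72 h, 2 were higher (Cyp2c70 and Cyp3a11), against 17.2% of 14239 genes, and the other 7 apart from Cyp2c29 were lower, against 17.3%. At 96 h, 3 were higher (Cyp2c29, Cyp2c70, and Cyp3a11), against 16.9% of 13866 genes. At 72 h 4 of the 10 hepatocyte markers were lower too, with a median log2 ratio of -0.38, and the part of this in the P450 counts was not tested. The 6 genes lower at 96 h were Cyp2e1, Cyp1a2, Cyp2f2, Cyp2a5, Cyp2d9, and Cyp2b10, against 17.5%, with Cyp2a5 counted because no peak was called there, which leaves 5 with a measured ratio. The median log2 ratio over the 10 genes was -0.17 at 48 h and -1.07 at 72 h, and -0.76 at 96 h over the 9 with a ratio. Cyp3a11 and Cyp2c70 were higher at all 3 later times, and Cyp1a2, Cyp2f2, and Cyp2d9 were lower at all 3. Scaling moved the background split more than the calls: with libraries scaled to regions that have a peak in each of them, 13.7% of genes were higher and 5.54% lower at 48 h and 12.3% and 21.1% at 96 h, and with median scaling the split at 48 h was 13.1% and 5.69%. Under either scaling the 10 genes gave the same counts of calls, except that 6 rather than 7 were lower at 72 h, where Cyp3a13 came out at -0.56 and -0.57 on the log2 scale. Without barcodes found in several libraries, 2 rather than 3 genes were lower at 48 h, as Cyp1a2 had a log2 ratio of -0.56, and 4 rather than 3 were higher at 96 h, as Cyp3a13 reached 0.60.

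**Figure D1:**
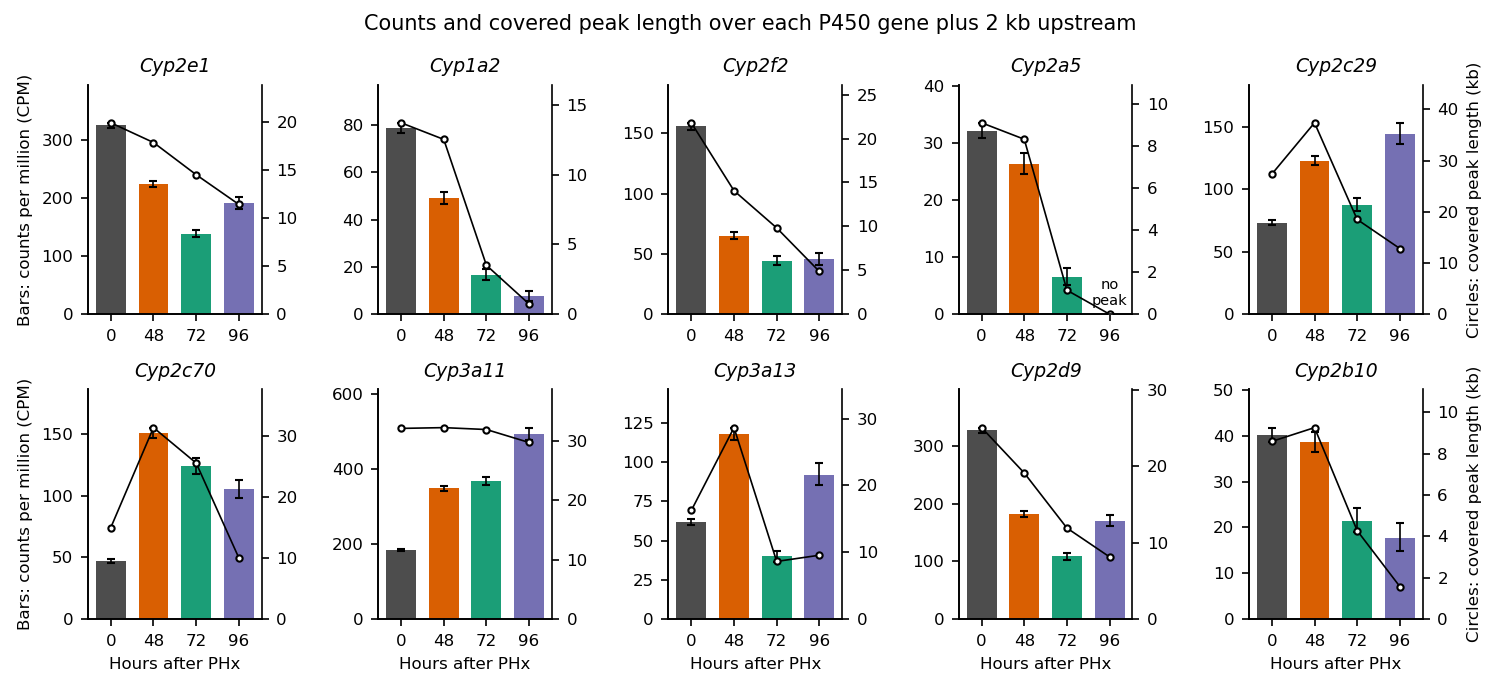
Bars give CPM over each gene plus 2 kb upstream in the 4 libraries (left axis, from 0), with exact 95% Poisson intervals for counting error, and circles give the summed length of the peaks counted (right axis, kb). Cyp3a11 was at 185 CPM at 0 h and 494 CPM at 96 h in peaks of nearly constant length, whereas for Cyp1a2, Cyp2f2, and Cyp2a5 counts and covered length were both lower at 72 and 96 h.

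Peaks were called in each library separately, so a sum over peaks moves with how much sequence was called, and counts and covered length are given side by side. Across protein-coding genes, log2 ratios of counts and of covered length had Pearson correlations of 0.87, 0.90, and 0.83 at 48, 72, and 96 h (14010, 14226, and 13820 genes, which share libraries and peak calls and are not independent). The median log2 ratio of covered length was 0.14, -0.16, and -1.10. A second measure kept only peaks with a partner of nearly equal length in the 0 h library (reciprocal overlap of at least 80%). In such peaks, 1.49% of 11312 genes were higher and 4.90% lower at 48 h, 9.77% of 9569 were higher and 5.16% lower at 72 h, and 64.8% of 2057 were higher and 0.194% lower at 96 h. At 48 h 7 of the 10 genes had such a peak, and 1 was higher (Cyp3a11) and 1 lower (Cyp2d9). At 72 h 2 had one, and Cyp3a11 was higher. At 96 h 4 had one, and these 4 (Cyp2c29, Cyp2c70, Cyp3a11, and Cyp3a13) were higher, at a time when the median gene was higher by 0.76 on the log2 scale. With median scaling their log2 ratios were 1.61, 1.05, 0.65, and 0.79, all past 1.5-fold. Of 1846 genes, 10.2% were higher on that scaling. A mean of 10 CPM, as asked of the background, was reached in such peaks by 6, 1, and 2 of them, with Cyp3a11 higher at each time, Cyp2d9 lower at 48 h, and Cyp2c29 higher at 96 h. The last measure, CPM per kb of covered peak relative to the median gene, is given for each gene below. On it, 2.57%, 4.31%, and 7.46% of genes were at least 1.5-fold higher at 48, 72, and 96 h and 2.82%, 4.40%, and 9.41% lower. Of the 10 genes, Cyp2c70 and Cyp3a11 were higher at 48 h, Cyp2c29 and Cyp3a11 at 72 h, and Cyp2c29 at 96 h, whereas none was lower at 48 h, Cyp2e1, Cyp2f2, and Cyp2d9 were lower at 72 h, and Cyp2e1 and Cyp2f2 at 96 h, besides Cyp2a5, which had no peak.

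**Figure D2:**
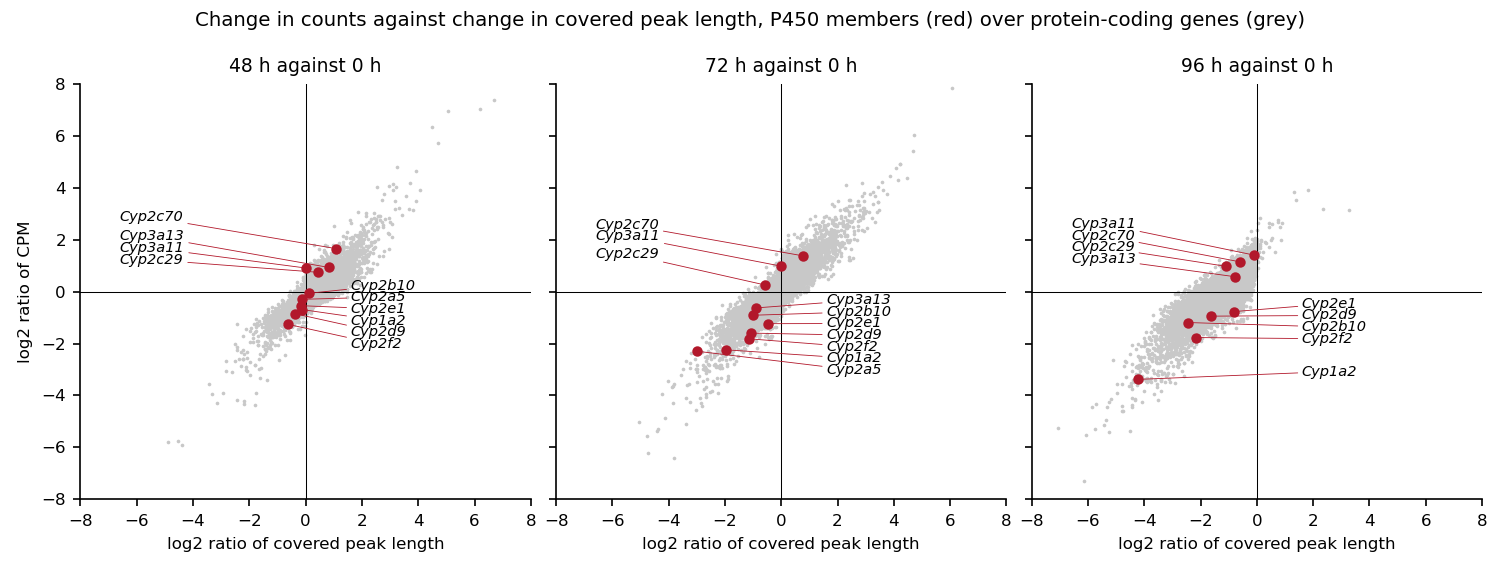
Each point is a protein-coding gene with a mean of at least 10 CPM (grey) or 1 of the P450 genes (red), with the log2 ratio of covered peak length to 0 h on the x axis and of CPM on the y axis. Cyp3a11 sits near 0 on the x axis and at 0.92, 0.99, and 1.42 on the y axis. Cyp2a5 is absent at 96 h, where no peak was called, and 1, 3, and 1 genes lie beyond the axes.

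The pericentral genes Cyp2e1, Cyp1a2, and Cyp2a5 had their highest counts in undamaged liver. Cyp2e1 encodes the enzyme that oxidizes ethanol and acetaminophen (chr7:140763739-140774987, + strand). Over it, 325, 224, 138, and 191 CPM were counted at 0, 48, 72, and 96 h, so the lowest library was that of 72 h and none of the 4 intervals overlapped. The ratio to 0 h was -0.54 (-0.58 to -0.50), -1.23 (-1.30 to -1.16), and -0.76 (-0.84 to -0.69) on the log2 scale. At 0 h 1 peak of 19.9 kb ran from 4.16 kb upstream of the start past the end of the gene and into the neighboring gene Syce1, and at 96 h 11.4 kb in 2 peaks were covered. In the 1 peak of nearly equal length at 48 h, the log2 ratio was -0.56 (-0.60 to -0.52), close to that over the whole gene. Per kb of covered peak and relative to the median gene, Cyp2e1 stood at -0.15, -0.93, and -1.20, the lowest value among the 10 genes at 72 and 96 h. The peak over the start itself was 19.9, 16.7, 2.06, and 0.82 kb long, and it covered all 250 upstream bases in every library. This peak held 325, 221, 14.8, and 14.1 CPM. Peaks that touch the 2 kb upstream or the first 500 bp of the gene were also summed in full. Their log2 ratios were -4.45 at 72 h and -4.52 at 96 h. They set the 1 peak over the whole gene at 0 h against short later peaks, so they are not of the start alone. Per kb, the start peak held 16.3, 13.2, 7.22, and 17.3 CPM. At 96 h the median gene was higher by 1.24 on the log2 scale in CPM per kb of covered peak. Binarised counts, with each peak of a nucleus as open or not, gave the opposite direction to CPM over the gene, with 0.52, 0.81, and 1.27.

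Cyp1a2, which oxidizes caffeine and aromatic amines and is switched on by AHR (chr9:57676937-57683703, - strand), had 78.8, 49.0, 16.7, and 7.57 CPM. Its 96 h library was 10.4-fold below 0 h (log2 ratio -3.38, -3.79 to -3.00), the largest fold of the 10 genes with a ratio. Covered length was shorter as well, at 13.7, 12.5, 3.51, and 0.73 kb. At 96 h 1 peak over the start was left, holding 10.3 CPM per kb where the start peak at 0 h held 5.41. Relative to the median gene, CPM per kb was -0.32, -0.42, and -0.39 on the log2 scale. A peak that reaches into the annotated body of the neighboring gene Cyp1a1 held 22.6 CPM at 0 h and 15.1 CPM at 48 h of the counts given for Cyp1a2, and no such peak lay in the window at 72 or 96 h.

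Cyp2a5, a coumarin hydroxylase (chr7:26835305-26843548, + strand), had 32.1, 26.3, and 6.55 CPM at 0, 48, and 72 h, and at 96 h no peak was called over it or its upstream region, so it is listed there at 0. The 48 h library was 1.22-fold lower (log2 ratio -0.29, -0.41 to -0.17), a difference that was -0.03 without barcodes found in several libraries, and the 72 h library 4.90-fold lower (-2.29, -2.63 to -1.97). Covered length was 9.10, 8.32, and 1.14 kb. The peak over its start was called at 0 h (813 bp, 2.61 CPM) and 48 h (400 bp, 1.23 CPM), and not at 72 or 96 h, making it the only gene of the 10 without a called start in some library. Most counts lay not at the start but in a peak that runs from the last part of the gene past its end, with 17.9, 14.2, and 5.74 CPM at 0, 48, and 72 h. Counts of the kind deposited cover called peaks only, so the absence of a peak sets no upper limit on cuts there. Cyp2a5 has near-identical relatives in the same cluster of Cyp2a genes, and the sources used here do not say how reads shared by them were assigned.

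Cyp2c29, a pericentral arachidonic acid epoxygenase induced through CAR and PXR (chr19:39269405-39330713, + strand), went the other way from these 3 genes, with 73.1, 123, 87.5, and 144 CPM. The log2 ratios were 0.75 (0.69 to 0.81), 0.26 (0.16 to 0.35), and 0.98 (0.89 to 1.08), with 72 h under the 1.5-fold limit. Covered length was 27.3, 37.4, 18.5, and 12.8 kb, so at 96 h more counts lay in less than the 0 h length, 11.3 against 2.67 CPM per kb. Relative to the median gene, CPM per kb was 0.53, 0.67, and 0.84 on the log2 scale. These counts came mainly from the gene body. The RefSeq start lies 17680 bp inside the longer annotated gene, and the peak over it held 6.11, 4.97, 2.14, and 3.48 CPM in 1280, 1194, 480, and 321 bp, which is 4.78, 4.16, 4.47, and 10.9 CPM per kb. In peaks of nearly equal length the 48 h ratio was -0.30 (-0.58 to -0.03), in the 1 peak over that start, and the 96 h ratio was 2.36 (2.17 to 2.55) in 2 peaks.

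**Figure D3:**
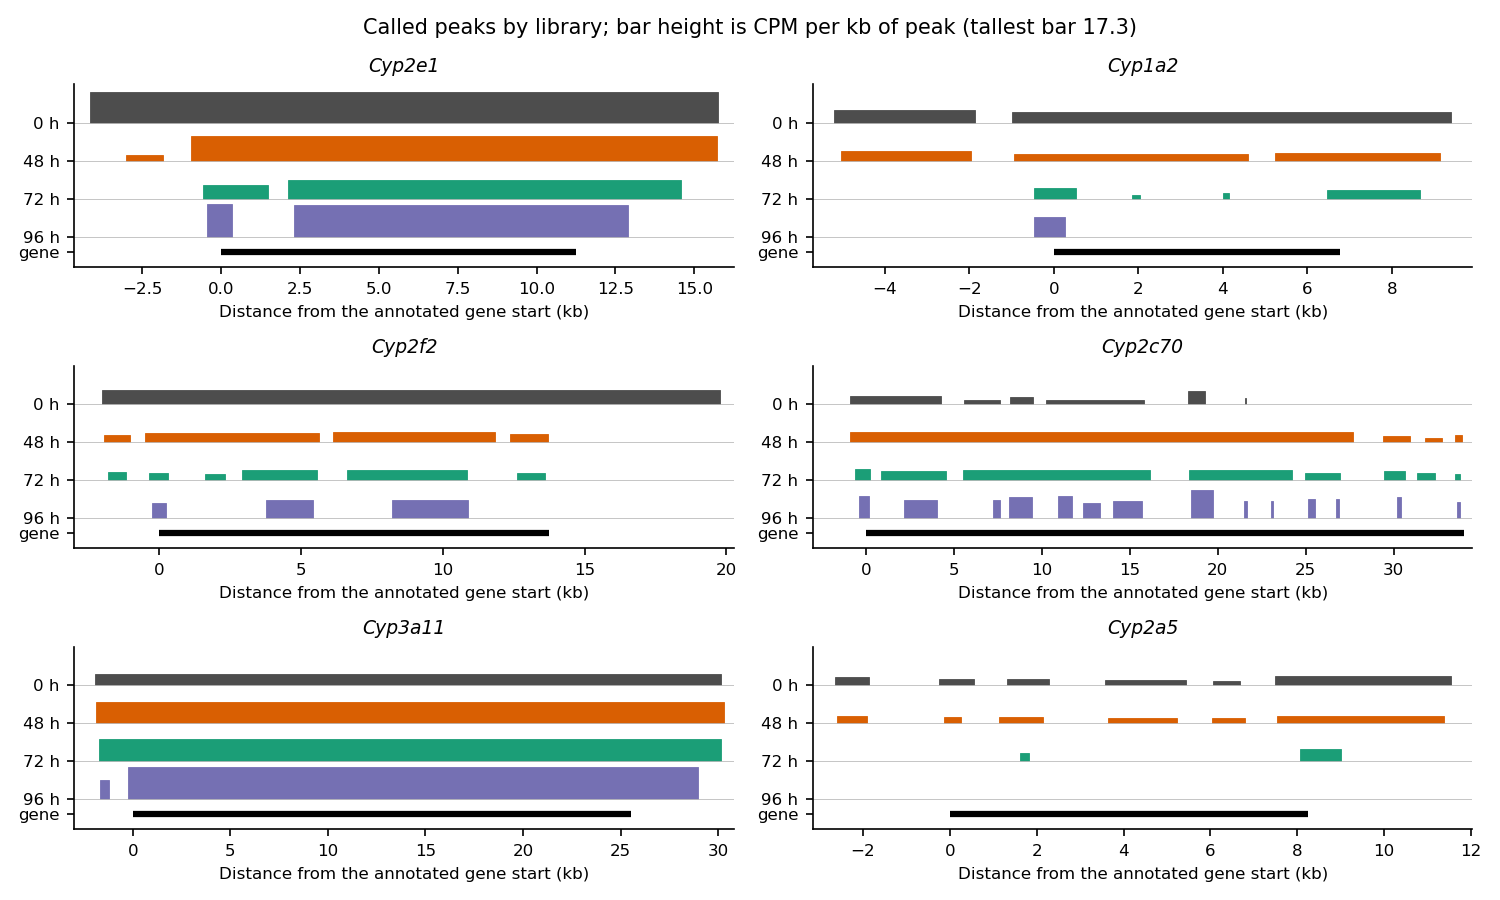
Called peaks over 6 genes, 1 row per library, drawn to scale by distance from the annotated gene start (kb), with bar height as CPM per kb of peak and the gene as a black line. The block over Cyp3a11 kept its extent and grew taller, the blocks over Cyp2e1 and Cyp2f2 broke up, Cyp2c70 filled in at 48 h, and Cyp2a5 was empty at 96 h.

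Cyp2f2, the periportal gene of the group, which oxidizes naphthalene (chr7:27119909-27133660, + strand), had 156, 65.3, 44.3, and 45.8 CPM. Undamaged liver was thus the highest by far, and the intervals of 72 h (40.7 to 48.2) and 96 h (41.1 to 50.9) overlapped. The log2 ratios were -1.25 (-1.32 to -1.19), -1.81 (-1.94 to -1.69), and -1.77 (-1.93 to -1.61), and at 48 h it was the lowest of the 10 genes. A single peak of 21.8 kb at 0 h broke into 4, 6, and 3 peaks that together covered 14.1, 9.83, and 4.87 kb, of which the start peak took 6.13, 0.65, and 0.51 kb. The start peak held 156, 27.8, 2.43, and 3.88 CPM, which is 7.2, 4.5, 3.7, and 7.7 CPM per kb. Over peaks that touch the 2 kb upstream or the first 500 bp of the gene, the log2 ratios were -2.32, -4.96, and -5.33. They set the peak over the whole gene at 0 h against shorter later peaks, so they are not of the start alone. None of the later Cyp2f2 peaks had a partner of nearly equal length at 0 h. CPM per kb relative to the median gene was -0.39, -0.82, and -0.84 on the log2 scale. The pericentral Cyp2e1 and the periportal Cyp2f2 were therefore both low at 72 h. In CPM over the gene Cyp2e1 was higher at 96 h than at 72 h, but not per kb relative to the median gene. Its start peak held 14.8 CPM in 2056 bp at 72 h and 14.1 CPM in 816 bp at 96 h. That is 7.22 and 17.3 CPM per kb, while the log2 ratio of the median gene per kb was 0.155 and 1.24.

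Cyp3a11, the main drug-oxidizing Cyp3a enzyme of mouse liver and a classic PXR target (chr5:145854426-145879964, - strand), had 185, 349, 367, and 494 CPM. Each library was above the one before it and no intervals overlapped, although 48 h (342.3 to 355.5) and 72 h (356.3 to 377.7) nearly touched. The log2 ratios were 0.92 (0.88 to 0.95), 0.99 (0.94 to 1.04), and 1.42 (1.37 to 1.47). Its covered length hardly changed, at 32.1, 32.2, 31.9, and 29.7 kb, so the same values came from peaks of nearly equal length: 0.92, 0.99, and 1.41. The 95th percentile of genes in such peaks was 0.34, 0.77, and 1.64, so Cyp3a11 lay above it at 48 and 72 h and below it at 96 h. CPM per kb relative to the median gene was 1.14, 0.84, and 0.29. Per kb and relative to the median gene, the ratio was thus largest at 48 h, while in CPM, and in CPM with median scaling (0.99, 1.04, and 1.35), it was largest at 96 h. The neighboring Cyp3a25, also covered by long peaks in all libraries (38.5, 37.2, 35.1, and 31.3 kb), had 494, 289, 263, and 461 CPM, lower at 48 and 72 h. It is named after its values were seen, and since Cyp3a genes are similar in sequence, reads shared between them are an uncertainty in both.

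Cyp3a13, a Cyp3a gene that lies apart from the Cyp3a11 cluster (chr5:137892932-137921619, - strand), had 61.6, 118, 40.0, and 92.1 CPM, high at 48 and 96 h and low at 72 h. The log2 ratios were 0.94, -0.62 (-0.76 to -0.49), and 0.58 (0.46 to 0.70), the last at 1.495-fold just under the limit of 1.5-fold. Covered length followed at 48 and 72 h, with 28.7 and 8.63 kb against 16.3 kb at 0 h. CPM per kb relative to the median gene was 0.35, 0.14, and 0.11, so its density differed little. The start peak held 24.2, 26.4, 14.6, and 19.0 CPM, and the gain at 48 h lay over the gene body, where 2 peaks of 15490 and 8495 bp held 58.0 and 33.8 CPM.

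Cyp2b10, the most used readout of CAR activity (chr7:25897620-25926624, + strand), had 40.2, 38.6, 21.5, and 17.7 CPM. The intervals of 0 h (38.7 to 41.8) and 48 h (36.5 to 40.9) overlapped, as did those of 72 h (19.0 to 24.2) and 96 h (14.8 to 21.0). The log2 ratios were -0.06 (-0.16 to 0.04), -0.91 (-1.09 to -0.72), and -1.19 (-1.45 to -0.93). In the 4 peaks of nearly equal length at 48 h the ratio was -0.03 (-0.14 to 0.08). Its start peak held 8.56, 8.50, 5.74, and 7.03 CPM over 1.64, 1.53, 0.91, and 0.54 kb. CPM per kb relative to the median gene was 0.06, -0.05, and 0.02, and the covered length was 8.59, 9.26, 4.27, and 1.57 kb, so that CPM and covered length were both lower at 72 and 96 h. Cyp2b10 and Cyp3a11, both induced by foreign compounds, therefore differed in direction at 72 and 96 h.

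Cyp2c70, the enzyme with which mice make muricholic bile acids (chr19:40153353-40187333, - strand), had 47.4, 151, 124, and 105 CPM, highest at 48 h and stepping down without reaching the 0 h level. The log2 ratio at 48 h, 1.67 (1.60 to 1.73) or 3.18-fold, was the highest of any of the 10 genes. At 72 and 96 h the ratio was 1.39 (1.30 to 1.48) and 1.15 (1.04 to 1.26). The peak over the start grew from 5.17 kb at 0 h to 28.6 kb at 48 h, and at 72 h the same stretch was covered by separate peaks. Total covered length was 15.0, 31.5, 25.6, and 10.0 kb. CPM per kb relative to the median gene was 0.83, 0.46, and 0.49, past 1.5-fold at 48 h. In the peak over the start the order was different, with 21.0, 143, 4.89, and 6.36 CPM, because that peak was 0.84 kb long at 72 h and 0.56 kb at 96 h.

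Cyp2d9, a male-predominant steroid hydroxylase (chr15:82433437-82456845, + strand), had 328, 182, 109, and 171 CPM, a pattern close to that of Cyp2e1. The log2 ratios were -0.84 (-0.89 to -0.80), -1.59 (-1.67 to -1.51), and -0.94 (-1.02 to -0.86). At 0 h 289 of its CPM lay in 1 peak of 15921 bp that covers the RefSeq start, 18940 bp inside the annotated gene, and runs past the gene end. At 48 h the matching peak of 15451 bp held 163 CPM. In the 2 peaks of nearly equal length at 48 h the ratio was -0.80 (-0.85 to -0.76). CPM per kb relative to the median gene was -0.22, -0.68, and -0.56. Cyp2d genes are near-identical to each other, so reads could be split between them.

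Per kb of gene plus upstream region, the order of the genes changed with time. At 0 h Cyp2e1 led with 24.5 CPM per kb, followed by Cyp2d9 (12.9), Cyp2f2 (9.89), Cyp1a2 (8.99), and Cyp3a11 (6.71). At 48 h Cyp2e1 still led (16.9), with Cyp3a11 second (12.7). At 72 and 96 h Cyp3a11 led, with 13.3 and 17.9 CPM per kb against 10.5 and 14.5 for Cyp2e1. Cyp2c29 and Cyp2c70 were among the lowest at 0 h (1.15 and 1.32), and Cyp2a5 was the lowest at 72 h (0.64). Peaks that run past the gene count in full here. Per kb of covered peak, Cyp2d9 led at 96 h with 21.0, and Cyp2e1 (16.8) and Cyp3a11 (16.6) were close to each other.

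The share of nuclei with a count showed the same directions when each nucleus was thinned to 1000 counts. Thinning matches depth but not covered length, since a nucleus can have a count only where its own library has a called peak. Cyp3a11 had a count in 11.8%, 22.3%, 22.4%, and 27.8% of nuclei, or 469 of 3977, 869 of 3892, 952 of 4256, and 895 of 3224. The intervals of 48 h (21.0 to 23.7%) and 72 h (21.1 to 23.7%) overlapped, and both lay above that of 0 h (10.8 to 12.8%). Cyp2e1 had a count in 19.1%, 13.7%, 8.11%, and 11.1%, and Cyp2d9 in 22.9%, 13.2%, 7.82%, and 11.4%. Both thus had a count most often at 0 h and least often at 72 h. Cyp2f2 had a count in 13.6%, 5.55%, 3.92%, and 4.09%, and Cyp1a2 in 6.41%, 4.11%, 1.22%, and 0.589%. Cyp2c70 had 4.05%, 10.9%, 8.62%, and 7.85%, and Cyp2c29 had 5.53%, 7.55%, 5.76%, and 9.18%. In nuclei of clusters low in hepatocyte markers, where those markers still summed to 1395, 1224, and 1301 CPM, Cyp3a11 had a count in 1.87%, 4.13%, and 5.62% and Cyp2e1 in 3.74%, 2.75%, and 3.55% at 0, 48, and 72 h. The share over all nuclei was above that in these clusters for each of the 10 genes at these times. The intervals of both shares overlapped, however, for Cyp2c70 at 0 and 72 h, Cyp2f2 and Cyp2a5 at 48 and 72 h, and Cyp1a2 and Cyp2b10 at 72 h. For Cyp2f2 at 72 h they were 3.36 to 4.55% and 1.22 to 4.99%. Without barcodes found in several libraries, the shares at 0 h were 17.0% for Cyp2e1 and 10.7% for Cyp3a11. Without thinning, the shares were 55.5%, 43.7%, 22.1%, and 24.4% for Cyp2e1 and 58.4%, 60.6%, 46.0%, and 50.0% for Cyp3a11, values that also carry the difference in depth.

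**Figure D4:**
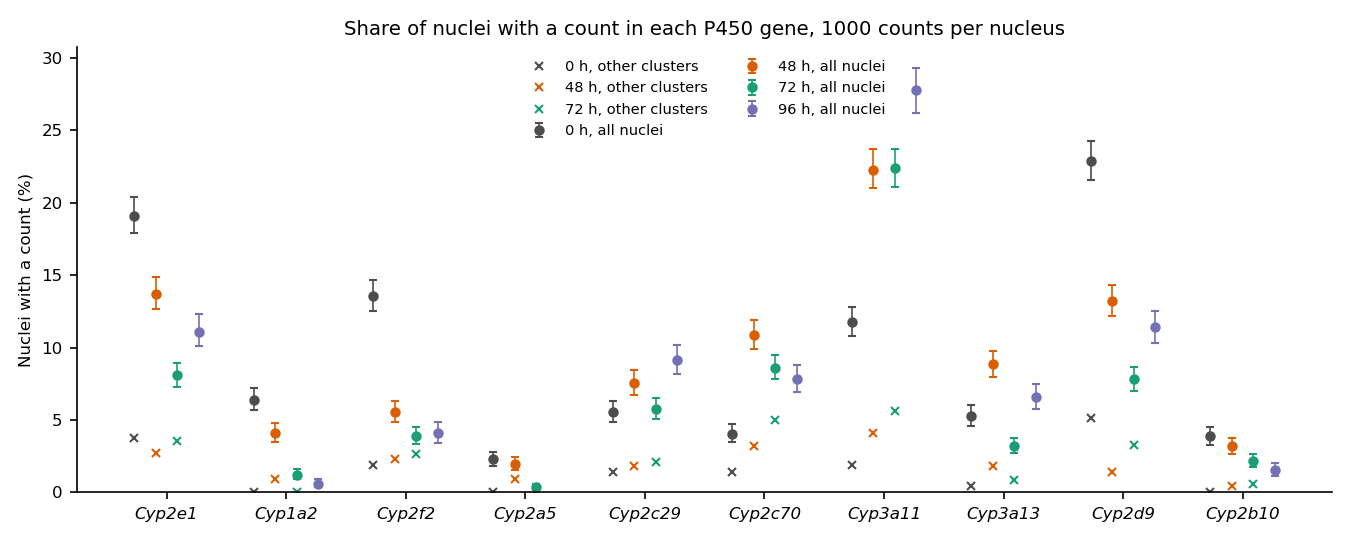
Circles give the share of all nuclei with a count in each gene after thinning each nucleus to 1000 counts, with exact 95% binomial intervals, and crosses give the share in clusters low in hepatocyte markers, of which there were none at 96 h. Cyp3a11 is at 11.8% at 0 h and between 22.3% and 27.8% later, and Cyp2f2 at 13.6% and then between 3.92% and 5.55%.

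Zonation of the 10 genes was then read within each library. Nuclei thinned to 2000 counts were scored by 10 pericentral genes (among them Glul and Axin2) against 10 periportal genes (among them Hal and Cps1), with no P450 in either list. A nucleus was called pericentral when its summed pericentral counts were above its periportal ones, and periportal when they were below. This gave 442, 552, 532, and 185 pericentral nuclei and 3060, 2819, 2802, and 2180 periportal nuclei. The lists were of unequal size, with 1073 against 3200 CPM at 0 h and 654 against 3619 CPM at 96 h, so class sizes are not zone sizes. In undamaged liver Cyp2a5, Cyp2e1, Cyp2c29, Cyp3a11, and Cyp1a2 were higher in pericentral nuclei, by 3.57-, 2.46-, 2.08-, 2.07-, and 1.91-fold. Cyp2f2 was 2.82-fold higher in periportal nuclei, with 179 against 63.4 CPM. When each list was taken as a share of its total, the classes held 1573 and 2085 nuclei at 0 h and 1057 and 1398 at 96 h. The folds at 0 h were then 1.74 for Cyp2f2 and 1.29 for Cyp1a2. Cyp2d9 differed by 1.24-fold, and for Cyp2c70, Cyp3a13, and Cyp2b10 the interval of the ratio spanned 0 on the log2 scale. With all counts of the same nuclei these 3 ratios were -0.42 (-0.60 to -0.25), 0.15 (0.02 to 0.28), and 0.23 (0.07 to 0.39), none of which spanned 0.

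The pericentral excess of Cyp2e1 was present in every library, with log2 ratios of 1.30 (1.08 to 1.52), 1.51 (1.26 to 1.75), 1.16 (0.83 to 1.49), and 1.07 (0.65 to 1.47), all overlapping. With all counts of the same nuclei the ratios were 1.23 (1.18 to 1.27), 1.49 (1.42 to 1.57), 0.95 (0.78 to 1.11), and 1.15 (0.93 to 1.37), and the intervals of 0, 48, and 72 h did not overlap. Its counts were thus lower after PHx in both classes: 526 and 214 CPM at 0 h against 208 and 92.8 CPM at 72 h. Cyp2c29 was also higher in pericentral nuclei, with ratios of 1.06 (0.58 to 1.51), 0.93 (0.48 to 1.36), and 0.66 (0.12 to 1.17) at 0, 72, and 96 h and 203 against 74.7 CPM at 48 h, a ratio of 1.44. At 96 h its interval spanned 0 at 1000 counts (0.59, -0.11 to 1.22) and with lists as shares (0.30, -0.03 to 0.63). For Cyp3a11 the ratio was 1.05 (0.75 to 1.33) in undamaged liver and 0.27 (0.04 to 0.49), 0.37 (0.15 to 0.59), and 0.11 (-0.21 to 0.42) later, intervals that did not overlap that of 0 h. Thinned to 1000 counts, the ratio was 0.84 (0.41 to 1.26) at 0 h, and the intervals at 48 h (0.16 to 0.76) and 72 h (-0.18 to 0.43) overlapped it. Between 0 and 48 h its level went from 296 to 380 CPM in pericentral nuclei and from 144 to 315 CPM in periportal nuclei. For the periportal Cyp2f2 the ratios at 0, 48, and 72 h were -1.50 (-2.10 to -0.95), -0.92 (-1.63 to -0.27), and -0.42 (-1.16 to 0.25), the last being -0.62 (-1.04 to -0.22) with all counts of the same nuclei. At 96 h it was -2.31 (-5.37 to -0.42), from 4 counts in pericentral nuclei, and -1.02 (-1.97 to -0.21) when all counts of the same nuclei were used. Cyp1a2 had a ratio of 0.93 at 0 h and 0.84 at 48 h, and at 72 and 96 h its intervals spanned 0, from 12 and 5 counts. Thinned to 1000 counts, its intervals spanned 0 at 0 h (0.65, -0.05 to 1.30) and 48 h (0.26, -0.58 to 1.04) as well. Cyp2a5 had 1.84 and 1.40 at 0 and 48 h.

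**Figure D5:**
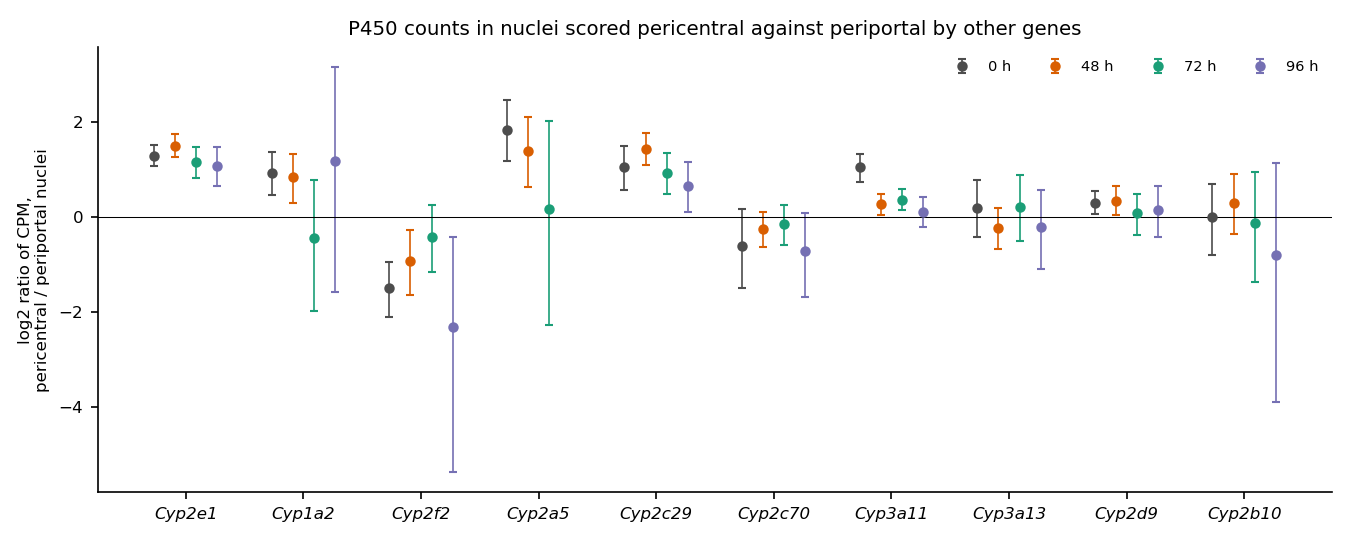
Points give the log2 ratio of CPM in pericentral over periportal nuclei, scored by 20 genes other than P450s, with exact 95% intervals for counting error, for each gene and library. Cyp2e1 stays between 1.07 and 1.51, Cyp3a11 goes from 1.05 at 0 h to between 0.11 and 0.37 later, and the intervals of Cyp1a2, Cyp2f2, and Cyp2b10 at 96 h are wide.

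Pairs of genes were also compared nucleus by nucleus. At 0 h Cyp2f2 had a count in 12.4% (10.5 to 14.5%) of the 1120 nuclei with a Cyp2e1 count and in 27.7% (26.0 to 29.5%) of the others. At 48 h the shares were 7.81% and 11.7%, at 72 h 5.31% and 7.50% with overlapping intervals, and at 96 h 3.04% and 7.64%. Nuclei with a Cyp2e1 count more often had a count in Cyp3a11, with 35.3% against 17.7% at 0 h, 44.7% against 35.1% at 48 h, 46.1% against 35.1% at 72 h, and 53.8% against 43.5% at 96 h, and in none of the 4 libraries did the intervals overlap. Cyp3a11 had a count in 18.4% of nuclei with a Cyp2f2 count and 24.3% of the others at 0 h, and at 48, 72, and 96 h the intervals of these shares overlapped. Cyp2d9 was open in 50.5% of nuclei with a Cyp2e1 count and 35.7% of the others at 0 h. All nuclei were thinned to 2000 counts for these shares, and those low in hepatocyte markers were included.

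Among the other P450 genes of families 1 to 4, more were called lower than higher at each time. Of 71, 36 could be called at 48 h, with 3 higher and 15 lower, 36 at 72 h, with 3 higher and 21 lower, and 31 at 96 h, with 1 higher and 19 lower. Of all genes, 10.9%, 17.2%, and 16.9% were higher and 7.94%, 17.3%, and 17.5% lower at these times. Their median log2 ratios were -0.43, -0.84, and -0.87. In peaks of nearly equal length 0 of 23 were higher and 4 lower at 48 h, and 0 of 12 higher and 2 lower at 72 h. The genes whose 3 ratios were most like those of Cyp2e1 were Cyp2d11, Cyp4v3, and Cyp2d10, with a largest difference of 0.13, 0.18, and 0.19 on the log2 scale, out of 40 candidates and over 3 ratios that share the 0 h library. Cyp2d10 and Cyp2d11 share peaks with each other. Nearest to Cyp2f2 were Cyp4f37, Cyp4f17, and Cyp2d26 (0.41, 0.44, and 0.49). Nearest to Cyp2b10 were Cyp1a1, Cyp2b13, and Cyp2e1 (0.31, 0.34, and 0.48).

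Nr1i2, which encodes PXR, had 279, 221, 149, and 176 CPM, and Nr1i3, which encodes CAR, 200.1, 177, 135, and 186 CPM, so both were lowest at 72 h, a time at which Cyp3a11 was higher and Cyp2b10 lower than at 0 h. Among 12 regulators and partners of P450 enzymes, 2 were higher and 2 lower at 48 h, 2 higher and 6 lower at 72 h, and 1 higher and 6 lower at 96 h, where of all genes tested 10.9%, 17.2%, and 16.9% were higher and 7.94%, 17.3%, and 17.5% lower. Ahr, the sensor that acts on Cyp1a2, was the highest at 48 h (log2 ratio 1.04) while Cyp1a2 itself was at -0.69. Covered length over Ahr was longer too, at 34381 bp against 22916 bp at 0 h (log2 ratio 0.59). Rxra, the partner of CAR and PXR, was the highest at 72 and 96 h (0.90 and 0.89), with 751, 1145, 1401, and 1394 CPM in a covered length of 99.7, 105, 103, and 91.1 kb. The lowest were Cebpa at 48 h (-0.64), which encodes a hepatocyte transcription factor, and Cyb5r3 at 72 and 96 h (-1.33 and -1.21), which encodes the reductase of cytochrome b5. The 10 pericentral genes used for scoring had 0, 0, and 0 higher and 0, 1, and 4 lower, with medians of 0.14, -0.13, and -0.33. The 10 periportal genes had 1, 0, and 1 higher and 3, 5, and 4 lower, with medians of -0.02, -0.32, and -0.19, to be read against the same shares of all genes. Cyp2e1, Cyp1a2, and Cyp2f2 were below the median of the list of their own zone at all 3 times, as was Cyp2a5 at 48 and 72 h, while Cyp2c29 was above the pericentral median at all 3, and whether they differ from those genes was not tested.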

How the data were processed

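Deposited counts of transposase cut sites per peak and barcode were used as the authors made them with Cell Ranger ATAC (the matrix headers name version 1.1.0), on build mm10, with peaks called in each library alone. Between 87.4% and 88.6% of values were even, since both ends of a fragment count, so Poisson intervals were computed on counts divided by 2. Counts of all barcodes with at least 1000 counts were summed over peaks that overlap a gene (GENCODE vM21) or 2 kb upstream and scaled to a library total of 1e6 (CPM). Clusters came from TF-IDF, singular value decomposition, nearest neighbors, and Leiden clustering within each library (Python 3.11.15, scipy 1.17.1, scikit-learn 1.9.0, leidenalg 0.10.2). No doublet caller was run; the 5% deepest nuclei were left out as an alternative. Alternatives changed the minimum count, barcodes, window, scaling, peak matching, and counting unit. The fold call, its interval, and the thinning were checked on simulated counts. The members and lists were chosen with earlier results of these data known. Named are all 10 members, in every library; the highest and lowest of 12 regulators at each time; the 3 P450 genes nearest in ratio to Cyp2e1, Cyp2f2, and Cyp2b10; and genes that share a peak with a member. Nr1i2, Nr1i3, and Cyp3a25 are named outside this rule, after their values were seen.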

Additional observations from a re-analysis of the deposited data

How the results depend on the processing

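No paired analysis was possible because each time point has 1 library and the labels give no shared replicate numbers. Leaving out a replicate was not possible for the same reason. The counts of called genes at 48, 72, and 96 h were 4, 2, and 3 higher and 3, 7, and 6 lower. With the promoter only they were 2, 1, and 1 higher and 4, 8, and 7 lower of 9 genes (2, 1, and 1 higher and 4, 9, and 8 lower of 10 at the RefSeq start), against 5.91%, 9.65%, and 20.5% of all genes higher and 11.2%, 21.0%, and 15.4% lower at the annotated start. Binarised counts gave 1, 3, and 4 higher and 0, 4, and 3 lower, so that more were higher than lower at 96 h (of all genes, 7.89%, 13.8%, and 12.7% were higher and 5.38%, 16.9%, and 16.8% lower). In peaks of nearly equal length they were 1, 1, and 4 higher and 1, 0, and 0 lower, of 7, 2, and 4 genes with such a peak, with or without median scaling. Of all genes, 1.49%, 9.77%, and 64.8% were higher and 4.90%, 5.16%, and 0.194% lower without it. With it, 3.62%, 8.03%, and 10.2% were higher and 1.33%, 6.62%, and 8.56% lower. CPM per kb of covered peak gave 2, 4, and 7 higher and 1, 2, and 1 lower, against 0.792%, 9.05%, and 92.8% of all genes higher and 8.95%, 2.08%, and 0.389% lower; with median scaling, 2 and 1 were higher at 48 and 96 h and 0, 3, and 3 lower. Of 96 such counts under alternatives, 65 were within 1.5 times the reported count. Of 424 single ratios, 22 of called genes changed sign. Binarised: Cyp2e1 0.81 and 1.27 at 72 and 96 h (and 0.52 at 48 h, where it was not called), Cyp2f2 0.10 at 48 h, Cyp2d9 0.28 at 96 h. Per kb: Cyp2e1 0.04, Cyp1a2 0.85, Cyp2f2 0.40, Cyp2d9 0.68, and Cyp2b10 1.26 at 96 h; Cyp2a5 0.70, Cyp3a13 0.29, and Cyp2b10 0.10 at 72 h. Per kb with median scaling: Cyp2a5 0.55 and Cyp3a13 0.14 at 72 h, Cyp2b10 0.02 at 96 h. Nearly equal length: Cyp2c29 -0.30 at 48 h, or -0.12 with median scaling. Promoter only: Cyp2c70 -2.10 and -1.72 at 72 and 96 h, also at the RefSeq start, where Cyp2c29 was -1.36 at 96 h. This setting counts in full any peak that touches the promoter, and these start peaks were shorter than at 0 h. Per kb, that of Cyp2c70 held 5.83 and 11.4 CPM at 72 and 96 h against 4.06 at 0 h. That of Cyp2c29 held 10.85 CPM per kb at 96 h against 4.78. The median gene was higher by 1.24 per kb of covered peak at 96 h on the log2 scale. Binarised counts saturate in deep nuclei and per-kb values follow peak length; the cause was not tested. Of the zone ratios, Cyp1a2 at 96 h became -0.07 at 1000 counts, and Cyp2b10 at 96 h 0.08 at 1000 counts, 0.18 with lists as shares, and 0.20 with all counts. Smaller ratios, with intervals that spanned 0, changed sign as well: among them Cyp1a2 at 72 h (-0.44) became 0.57 in hepatocyte-like clusters, 0.19 with lists as shares, and 0.23 with all counts, Cyp2c70 at 72 h (-0.15) became 0.30 with lists as shares and 0.35 in hepatocyte-like clusters, and Cyp2b10 at 72 h (-0.12) became 0.60 with lists as shares. The promoter at the RefSeq start, the barcodes left out, median scaling per kb or in peaks of nearly equal length, and the zone ratios on all counts were chosen after seeing the data. The depth of the 96 h library (14935507 counts in nuclei, against 136582768 at 0 h) limits Cyp1a2, Cyp2a5, and Cyp2b10 there.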
